A study of Drosophila melanogaster with 4 samples.

Results

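The long stretches of the Drosophila melanogaster genome in which no region enriched for trimethylated lysine 79 of histone H3 (H3K79me3) was called were described from chromatin immunoprecipitation and sequencing of whole embryos. A stretch was taken as every interval of 40000 bp or more, on X and on the large autosomal arms 2L, 2R, 3L and 3R, that held no base of an enriched region in either of 2 replicates. The 5536 uncovered intervals of these arms contained 578 such stretches, which is 10.4% of the intervals. The stretches were chosen by the positions of the enriched regions, so their number, length and place are given as a description and were not tested.

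H3K79 methylation is placed in the globular part of histone H3 by the methyltransferase Grappa, the fly counterpart of Dot1, and is known from the bodies of transcribed genes. Fly chromatin also holds long domains of silent genes, which include domains under Polycomb repression, gene-poor or tissue-restricted domains, and the heterochromatin around centromeres. In a preparation from whole embryos, a place marked in few cells can go uncalled, so an uncovered stretch is one in which no region was called, not one in which the mark was shown to be absent from every cell.

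Both replicates came from wild-type embryos of the strain Oregon-R, labelled 14 to 16 hr old, treated alike with 1 antibody to H3K79me3 (Abcam ab2621, lot 1). Of 4 samples, 2 were ChIP and 2 were input samples, and values of the inputs were not used here. The groups share strain, stage and genotype, so no contrast between conditions exists. The lists give the position and a score of each region, with 5881 enriched regions on the 5 arms in replicate 1 and 5166 in replicate 2; they hold no read counts, so the depth is unknown. Nothing in the labels says that the replicates came from separate collections, and their spread may be technical.

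The stretches held 53.7 Mb, or 45.1% of the 119 Mb of the 5 arms. Few intervals thus held most of the uncovered sequence: the 578 stretches made up 62.7% of all uncovered bases, whereas 2063 uncovered intervals under 2 kb made up 1.90%. With the stretches taken out by this choice, 51.1% of the remaining bases lay inside a region of at least 1 replicate, beside 28.0% of the whole arms. Each replicate read alone by the same rule gave 578 and 607 stretches, covering 45.7% and 47.8% of the arms (46.7% ± 1.49, SD, n = 2). That replicate 1 alone and the merged list both count 578 is a coincidence of number, since merging splits some stretches and shortens others below the limit.

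The median stretch was 71614 bp long, with quartiles at 52849 and 110703 bp. Lengths from 40 to 60 kb were found in 211 stretches, from 60 to 100 kb in 191, from 100 to 200 kb in 137, and of 200 kb or more in 39. The 176 stretches of 100 kb or more were 30.4% of the members and held 53.2% of their bases. Numbers fell steadily with length and showed no gap at the limit chosen: 1029 intervals reached 20 kb, 367 reached 60 kb, 95 reached 140 kb and 8 reached 300 kb. Replicates 1 and 2 alone had 38 and 43 intervals of 200 kb or more, close to the merged count.

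**Figure D1:**
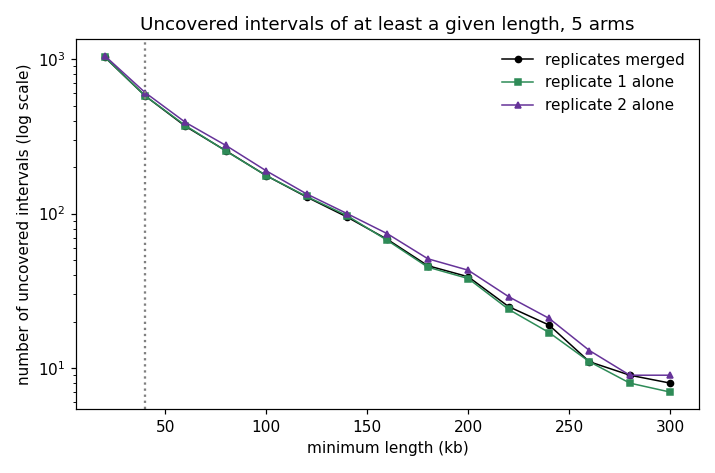
Number of uncovered intervals on the 5 arms (log axis) that reach each minimum length in kb, for the merged replicates and for each replicate alone; the dotted line marks 40 kb. The 3 curves lie close together and fall smoothly from 1029 merged intervals at 20 kb to 8 at 300 kb.

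At the limit itself, the 3 shortest stretches were a stretch of 40063 bp on X (16598390 to 16638452), one of 40089 bp on 3R (164315 to 204403) and one of 40147 bp on 2L (21576014 to 21616160). The 3 longest intervals just under it were one of 39833 bp on X (15837707 to 15877539), one of 39814 bp on 2R (6995102 to 7034915) and one of 39598 bp on the same arm (3901308 to 3940905). The limit therefore cuts through a continuum and sets no class apart.

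The longest stretch closed the centromere side of 3L, from 24023240 to the last base of the arm sequence at 24543557, and was 520318 bp long. No region of either replicate or of the authors' series-wide list lay in it. Its only border was a region of 1959 bp called in replicate 2 alone, with a score of 0.462. The neighbouring stretches on 3L from 23334178 to 23707710 (373533 bp) and from 23709983 to 24021280 (311298 bp) had ranks 3 and 6 by length, and also held no base of the series-wide list.

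The second longest stretch lay well inside the same arm, on 3L from 18179351 to 18612616, 5.93 Mb from the centromere end. It was 433266 bp long, and its borders were called in both replicates, with scores of 1.53 and 1.56 on one side and 0.571 and 0.754 on the other. Read alone, replicate 1 left 433415 bp uncovered here and replicate 2 left 433266 bp, a difference of 149 bp. The series-wide list reached 57 bp into it.

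The remaining 6 of the 10 longest lay on 2L, 3R and X. On 2L these were 17777813 to 18131285 (353473 bp), 14689996 to 14993951 (303956 bp) and 16902441 to 17201737 (299297 bp). On X they were 21501918 to 21845866 (343949 bp) and 7237128 to 7502052 (264925 bp). The single one on 3R ran from 6719732 to 7028271 (308540 bp). The longest on 2R, from 718438 to 977726, had 259289 bp and fell outside the 10. Of the 10 longest, 4 lay within 1 Mb of a centromere end and 6 were 4.88 Mb or more away from it.

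Every arm carried stretches, at 4.26 to 5.23 per Mb. The share of the arm inside them was lowest on 2R, at 37.3%, followed by 3L with 44.4% and 3R with 45.7%, and highest on 2L with 48.6% and X with 49.0%. The replicates alone kept 2R lowest and X highest, with 38.6% ± 1.23 and 50.9% ± 1.77 (SD, n = 2). Replicate 2 had the larger share on every arm, so these SDs hold a shift common to all arms, and neighbours in the order are given within each replicate. X lay above 2L by little, with 49.7% beside 49.4% in replicate 1, and with 52.2% beside 51.7% in replicate 2. Likewise 3R lay above 3L in both, at 46.0% against 45.0% and 47.9% against 47.1%. The series-wide list, read by the same rule, kept 2R lowest, at 36.0%, but reversed both close orders. There 2L was highest with 47.9%, above X with 46.6%, and 3L with 43.6% lay above 3R with 43.1%. With 2 replicates these differences were not tested.

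On X the stretches were longer at the median, at 80013 bp against 70750 bp on the 4 autosomal arms together. In the replicates the X median was 78864 and 83509 bp, and the autosomal one 71004 and 70230 bp. The number per Mb was similar, at 4.99 on X and 4.82 on the autosomal arms. A difference between X and autosomes was not tested, since 2 replicates allow no two-sided exact sign-flip permutation p below 0.5.

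Along the arms the share of bases in stretches was highest next to the centromere end of the arm sequence. With each arm cut into 5 equal parts, the part next to the centromere had 54.1% of its bases in stretches, and the following ones 45.7%, 45.3%, 41.6% and, next to the telomere, 38.9%. Replicate 1 alone gave 54.8% in the innermost and 39.5% in the outermost part, and replicate 2 gave 55.6% and 42.2%. The number of stretches centred in each part followed no such order, at 123, 112, 124, 104 and 115 from the centromere outwards. Median lengths differed little between the parts, from 70602 to 72583 bp. The falling order of the shares held on no single arm. On 2R, 3L and X the innermost part was the highest, at 51.2%, 58.3% and 63.1%, but the parts beyond it did not fall in order. On 3R the third part was the highest, at 51.4%, with the innermost and outermost at 45.8% and 46.5%. On 2L the second part from the centromere was the highest, at 63.1%.

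The last 1 Mb at the centromere end of the arm sequence set 3R apart from the other 4 arms. It lay in stretches to 99.6% on 3L, 87.9% on 2L, 85.8% on 2R and 81.5% on X, but to 36.7% on 3R, which is below the share of that whole arm. Replicates 1 and 2 alone gave 88.9% and 85.8% on 2R and lay closer together on the other 4 arms. At the telomere ends the values were 26.6% on 3L, 26.9% on 2L, 30.6% on 2R, 40.5% on X and 43.3% on 3R. How far each arm sequence runs towards its centromere is not stated, and the lists hold further sequences such as 3LHet. These windows thus need not lie equally near the centromeres. Sequence that takes up few reads would look the same as unmarked sequence, and its part near the centromeres was not tested.

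Only 3 stretches reached the end of an arm sequence. They were the 520318 bp at the centromere side of 3L, a stretch of 49843 bp that closed 2L from 22961702 to 23011544, and the first 128710 bp of 3L at its telomere. On 3R the first marked base lay 10 bp from the centromere-side end.

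**Figure D2:**
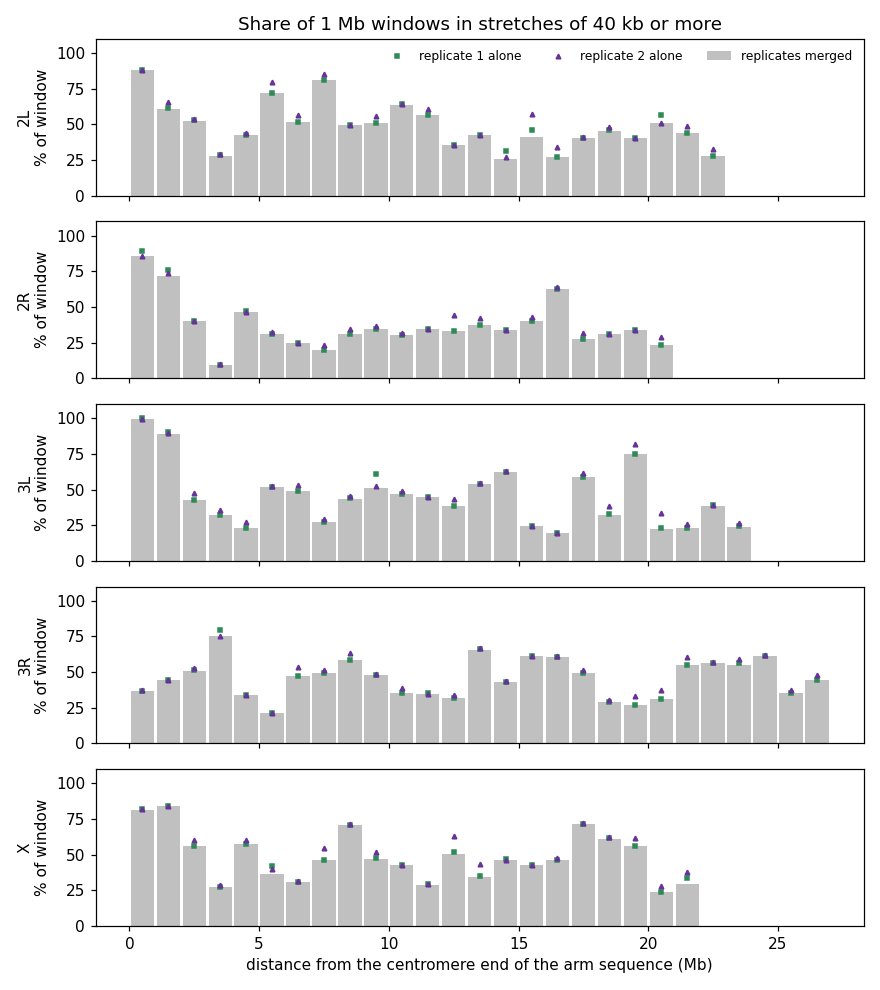
Percent of each 1 Mb window inside stretches of 40 kb or more, by distance from the centromere end of the arm sequence in Mb; grey bars are the merged replicates, squares and triangles the replicates alone. The window at the centromere end of the arm sequence reaches 99.6% on 3L and 36.7% on 3R, and no window is at 0%.

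Stretches were also present throughout the arms. None of the 117 full windows of 1 Mb, counted from the centromere end, was free of them (0 windows), and the median window was at 43.2%, with quartiles of 32.0% and 55.2%. Beyond the centromere side, the fullest windows lay on 2L from 15011545 to 16011544, with 81.0%, and on 3R from 3000001 to 4000000, with 75.4%. The emptiest was on 2R from 3000001 to 4000000, at 9.46%, with 9.46% and 9.86% in the replicates alone.

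The longest part of an arm without a stretch spanned 827243 bp on 2R, from 19409432 to 20236674. Marked bases made up 44.7% of it in replicate 1 and 41.0% in replicate 2, and its longest uncovered interval had 37958 bp, just under the limit. The next were 693637 bp on 2R from 11615761 to 12309397 and 658431 bp on 3L from 3761886 to 4420316.

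Some neighbouring stretches were parted by very little sequence, though most were not. Over 573 neighbouring pairs on the same arm, the median distance between the end of one and the start of the next was 66595 bp. In 136 pairs (23.7%) it was 20 kb or less, in 65 pairs 5 kb or less, and in 23 pairs under 2 kb. In 90 pairs a single marked block, that is, one unbroken run of regions of the merged replicates, was all that lay between the stretches. These blocks were 3179 bp wide at the median. The shortest separators were 1331 bp on 2L from 14542434 to 14543764, called in replicate 1 alone with a score of 0.290, and 1390 bp on 3R from 1925049 to 1926438, called in replicate 2 alone with 0.518.

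Stretches no more than 20 kb apart were joined into runs. This gave 99 runs with 235 stretches, 40.7% of all, of which 75 were pairs, 17 held 3 stretches and 7 held 4 or more. With at most 10 kb allowed between neighbours 185 stretches fell into runs, and with 50 kb 368 did. Together the runs spanned 22.5 Mb, or 18.9% of the arms. Stretches in runs were as long at the median as those outside, at 71306 and 71648 bp. How many such runs an even scatter of stretches would give was not tested.

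The largest run held 8 stretches on 3L, from 22769015 to the end of the arm, over 1774543 bp. In this span 1.42% of bases were marked in replicate 1 and 1.95% in replicate 2. The 12 marked blocks inside it were 1633 to 7259 bp wide. The block farthest but one from the arm end, on 3L from 22859799 to 22867057, was the widest and scored 2.12 and 1.99, while of the 6 blocks nearest the end, from 23092214 onwards, replicate 1 had 2, with 0.246 and 0.231, and replicate 2 had all 6, with 0.462 to 0.787.

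Replicate 1 had no region in the final 1209852 bp of 3L, its longest uncovered interval. Replicate 2 placed 2 whole regions there, 2272 bp on 3L from 23707711 to 23709982 (score 0.632) and 1959 bp from 24021281 to 24023239 (score 0.462), and 1 region crossed its edge. The series-wide list kept the first of these, with a score of 0.256, and not the second, which left 833841 bp uncovered to the end of the arm. The ranks of the longest stretches near this centromere thus rest on narrow, low-scoring regions of 1 replicate.

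**Figure D3:**
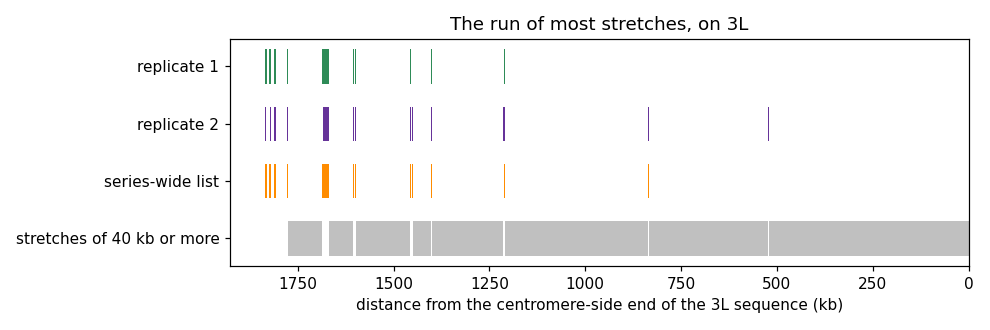
Enriched regions of replicate 1, replicate 2 and the series-wide list, and the stretches between them, over the run of 8 stretches on 3L; the horizontal axis is the distance in kb from the centromere-side end of the arm sequence. Replicate 1 has no region over the last 1209852 bp, where replicate 2 has 2 narrow ones.

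Other long runs lay beside the centromeres of 2L and 2R and inside arms. On 2L a run of 4 stretches spanned 537191 bp up to the arm end, and on 2R one of 5 stretches spanned 461933 bp from 20505 to 482437. On X, 3 stretches spanned 504365 bp from 20396633 to 20900997, parted by 3 blocks that were 3285 bp wide or less. Away from the centromeres, 2L from 15766093 to 16231304 held 4 stretches over 465212 bp, with 1.90% and 1.88% of bases marked in the replicates.

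The stretches of one replicate were close to unmarked in the other, which had no part in choosing them. The 578 stretches of replicate 1 were covered to 0.320% of their bases by replicate 2, against 47.0% of the sequence outside them. The 607 stretches of replicate 2 were covered to 0.999% by replicate 1, against 50.9% outside. At most 5% was covered in 575 of the 578 and in 563 of the 607. The highest values for a single stretch were 10.7% and 16.8%.

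Replicate 1, with more regions in all, placed 226 regions wholly inside stretches of replicate 2, while replicate 2 placed 46 in those of replicate 1. These regions were narrow and weak, with median widths of 1585 and 1512 bp and median scores of 0.488 and 0.496. All regions of the 5 arms had median scores of 0.882 in replicate 1 and 0.930 in replicate 2. The score is the authors' own value and its scale is not stated.

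The edges were placed alike. The stretches had 1153 edges that were not arm ends, and 957 (83.0%) had a bordering block called in both replicates. At these the edges of the replicates lay 96 bp apart at the median, and 684 (71.5%) lay within 200 bp of each other. Offsets over 1 kb were seen at 56 edges. Replicate 1 reached farther into the stretch at 606 edges and replicate 2 at 350, and 1 edge fell on the same base.

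The series-wide list, which the authors deposited for the same samples and which is no independent measurement, left the stretches nearly empty. It covered 313 kb in them, or 0.582% of their bases, against 53.1% of the sequence outside and 4.99% of the shorter uncovered intervals. No base was covered in 70 stretches (12.1%), and less than 1% in 450 (77.9%). With the series-wide regions taken out, 561 of the 578 still contained an uncovered interval of 40 kb or more. Stretches found in replicate 1 alone had 0.878% and those found in replicate 2 alone 1.73% of their bases in series-wide regions.

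The residual cover had 2 forms. Regions that overlapped a replicate's region and ran on into a stretch entered it 733 times, by 36 bp at the median and by 1757 bp at most. The other 178 series-wide regions stood isolated inside stretches with no base in a replicate region, and held 237 kb, or 75.7% of the residual cover. Such unmatched regions were 11.8% of all series-wide regions on the arms, 720 in all, and 24.7% of these 720 lay in stretches. They were present in 131 stretches, at 3.31 per Mb of stretch, against 17.0 per Mb of the shorter uncovered intervals.

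The isolated regions were narrow, 1233 bp wide and with a score of 0.334 at the median, beside 3303 bp and 0.699 for all series-wide regions of the arms. In this they resembled the other 542 unmatched series-wide regions, which lay outside stretches and had medians of 1245 bp and 0.342. Of the 178, 105 were narrower than the narrowest replicate region, which had 1301 bp. In 89 (50%) the nearer edge of the stretch was under 5 kb away, though only 10.8% of the stretch sequence lies that close to an edge. The widest was 3045 bp on 2R from 15726738 to 15729782. The highest score, 1.28, belonged to X from 5421660 to 5422682, inside the stretch from 5412871 to 5513445.

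Residual cover exceeded 5% in 9 stretches. The highest was 15.6%, on 3R from 5273085 to 5314897 (41813 bp), into which 7 series-wide regions fell. It was followed by 10.8% on 3R from 1511469 to 1567559, 9.64% on X from 8615624 to 8659230, 7.54% on 3R from 787773 to 878181 and 7.14% on 2R from 10534213 to 10577450. Longer stretches had less: the residual was 1.02% of bases at 40 to 60 kb, 0.664% at 60 to 100 kb, 0.491% at 100 to 200 kb and 0.175% at 200 kb or more.

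Each edge is by construction the end of a marked block, and the narrowest region has 1301 bp, so the first 1 kb outside is wholly marked in the merged replicates. Singly, replicate 1 marked 89.4% of these bases and replicate 2 marked 77.0%. From 2 to 5 kb outside, the mean of the replicates was 57.4% ± 1.59 (SD, n = 2), from 10 to 20 kb 39.6% ± 1.47, and from 80 to 100 kb 26.1% ± 0.749. The last is near the 27.0% and 25.7% of the whole arms. Other stretches filled 1.10% of the sequence at 1 to 2 kb and 44.8% at 80 to 100 kb. Inside the edge, the series-wide list fell from 11.7% in the first 0.5 kb to 1.43% at 2 to 5 kb and 0.276% at 10 to 20 kb.

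**Figure D4:**
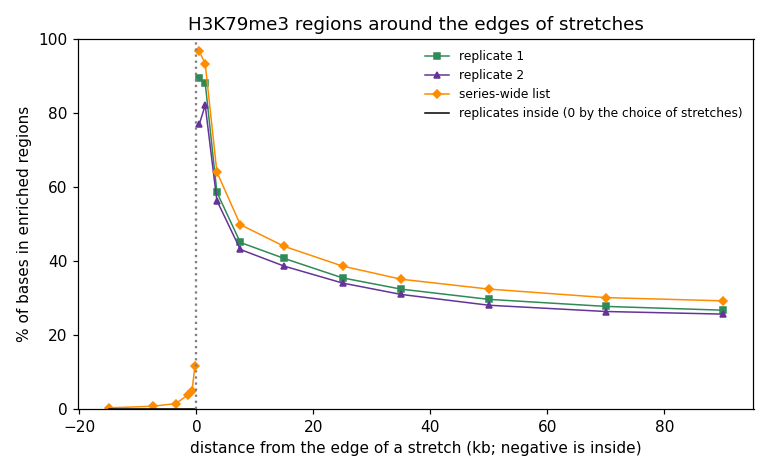
Percent of bases in enriched regions by distance in kb from 1153 edges of stretches, outside (positive) and inside (negative), for each replicate and the series-wide list. The replicates are at 89.4% and 77.0% in the first 1 kb outside and near the level of the whole arms at 80 to 100 kb; inside, the series-wide list falls from 11.7% to 0.276%.

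The regions that border stretches had median widths and scores near those of each whole list. Replicate 1 had 1027 of them, at the median 3174 bp wide and scored 0.891, beside 3326 bp and 0.882 for all its regions on the arms. Replicate 2 had 925, with 3393 bp and 0.955 beside 3462 bp and 0.930.

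By width class the shares differed from those of the whole lists by up to a few percentage points. Regions under 2 kb were 248 of the bordering ones in replicate 1 (24.1%, against 21.8% of all) and 187 in replicate 2 (20.2%, against 20.1%). Broad regions of 10 kb or more were 148 in each replicate, 14.4% and 16.0%, against 12.3% and 14.3% of all. Regions of 4 to 10 kb were fewer among the borders, where they made up 25.2% and 27.1%, against 29.0% of all in both replicates. Broad domains and narrow peaks thus both stood at the edges.

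The same held for marked blocks of the merged replicates. Of 1063 blocks next to a stretch, 882 were found in both replicates (83.0%, against 84.3% of all blocks), and 233 were under 2 kb wide (21.9%, against 20.2%). The 90 blocks with a stretch on each side were slightly narrower, at 3179 bp against 3535 bp for all blocks. Border scores, taken here as the highest score in each block, showed no steady order with the length of the stretch. Their medians in replicates 1 and 2 were 0.895 and 0.948 beside stretches of 40 to 60 kb, 0.980 and 1.04 at 100 to 200 kb, and 0.840 and 0.754 at 200 kb or more.

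**Figure D5:**
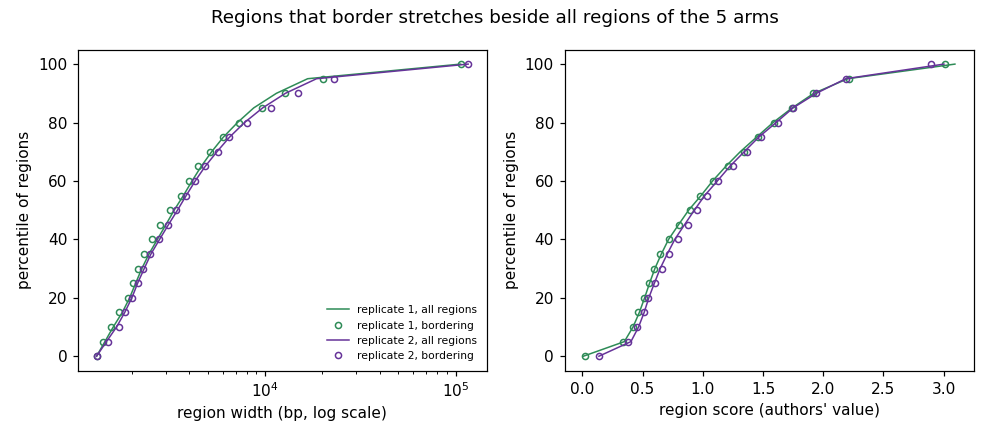
Percentiles of region width (left, bp on a log axis) and region score (right, the authors' value) for the regions that border stretches (open circles) and for all regions of the 5 arms (lines), in each replicate. Scores of both sets lie close together, with medians of 0.891 beside 0.882 in replicate 1 and 0.955 beside 0.930 in replicate 2. Widths part at the upper end, where the 95th percentile is 20230 beside 16718 bp in replicate 1 and 22866 beside 18613 bp in replicate 2.

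The strongest border in both replicates lay on 2R, from 18685744 to 18690305 in replicate 1 with a score of 3.01 and from 18685748 to 18690337 in replicate 2 with 2.90. It directly adjoined the stretch on 2R from 18626750 to 18685743. Replicate 1 followed with X from 19670358 to 19678330 (2.90) and 2R from 4124541 to 4128321 (2.82), and replicate 2 with 3R from 1826293 to 1835045 (2.80) and X from 6761782 to 6774354 (2.76). At these places one of the highest scores of a list lay beside 40 kb or more without a call.

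The weakest borders were near 0. In replicate 1 the scores were 0.0232 on 3L (15829166 to 15830894), 0.0842 on 3L (19971729 to 19973434) and 0.0896 on 3R (12977108 to 12978682). In replicate 2 they were 0.136 on 2R (19283014 to 19284622), 0.171 on 3L (15829155 to 15830789) and 0.195 on 2R (14593354 to 14594908). The same place on 3L is thus among the weakest in both.

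Among broad borders, chosen for naming after their values were seen, 3L from 22295384 to 22401723 in replicate 1 was 106340 bp wide with a score of 2.46. In replicate 2 it ran from 22295421 to 22401672, with 106252 bp and 2.29. It ended where the stretch on 3L from 22401724 to 22452033 began, so that a called region of over 100 kb met over 50 kb without a call. In replicate 2 a wider border lay on 3R from 5697998 to 5814532, with 116535 bp and a score of 1.65. It lay beside the stretch on 3R from 5635719 to 5697948.

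Stretches near centromeres were set beside the rest, with a limit of 2 Mb chosen after the data were seen. The 60 stretches centred within 2 Mb of a centromere end had a median of 89291 bp, and 10 (16.7%) were 200 kb or longer. The 474 interior stretches had a median of 70972 bp, and 29 (6.12%) reached 200 kb. The 44 near telomeres had a median of 66862 bp and none of that length (0 stretches). Near centromeres the median was 163128 bp on 3L and 194340 bp on X, but 65893 bp on 2R and 68516 bp on 3R.

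Taken over all arms, borders near centromeres were narrower, with blocks of 2725 bp at the median against 3534 bp for interior stretches. Their median scores, taken as the highest score in each block, were 0.855 and 0.882 in replicates 1 and 2, against 0.906 and 0.996 in the interior. The arms differed in this. On 2R the blocks were 2237 bp wide at the median with scores of 0.770 and 0.698, and on 3L 2322 bp with 0.696 and 0.651. On 3R they were wider than in the interior, at 3891 bp, and scored higher, with 0.997 and 1.03. On 2L they were narrower, at 3019 bp, but scored higher, with 1.07 and 1.10. On X the block median was 3445 bp, with scores of 0.933 and 0.852, of which only that of replicate 1 was above the interior. Of 96 border blocks near centromeres, 14 were called in replicate 2 alone and 7 in replicate 1 alone. Over the interior the order was the other way, with 23 and 123 of 884 border blocks. Among all marked blocks of the arms, 3.06% were called in replicate 2 alone and 12.7% in replicate 1 alone. Of the 14, 7 lay on 2R, 4 on 3L, 2 on 2L and 1 on 3R. These differences between places were not tested.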

How the data were processed

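The authors deposited 1 region list per ChIP replicate and 1 for the series, with first and last base, type and a score whose scale is not stated. Coordinates are 1-based on FlyBase r5, per the file headers. The submitters' processing notes name Bowtie 0.12.7. How regions were called, with what threshold and whether against the inputs, is not given in the sources used here. Enriched rows of both replicates were merged, and uncovered intervals of 40000 bp or more were taken, with arm lengths from the file headers. Arms 2L, 3L and X were read from telomere to centromere, 2R and 3R the other way. A region bordered a stretch when it was the outermost region of the adjoining marked block. Where a score is given for a block, it is the highest among the block's regions in that replicate.

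Most named places followed a rule: the 10 longest stretches, the longest per arm, those at arm ends, those nearest the limit, the 5 of highest residual cover, the largest and longest runs, and the 3 highest and 3 lowest border scores per replicate. Outside this rule, extremes were named among windows, parts without a stretch, separators, isolated regions and broad borders. Depleted rows were named where they touched a stretch. Members and rules were chosen with earlier results of these data known. The gene table at hand follows Release 6, so genes were not assigned, and no sequence was read. No test was made, since 2 replicates give no exact two-sided p below 0.5. The interval finder was tested on simulated data. Python 3.11.15, numpy 2.4.6 and matplotlib 3.10.9 were used.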

Additional observations from a re-analysis of the deposited data

Results flagged for a closer look

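The deposited rows called depleted were not used in the comparisons. There are 7 in the series-wide list, which include a row on 3LHet outside the 5 arms, and 2 in that of replicate 1. A place on 2R is called depleted in both lists. Of all these rows, 3 touched a stretch. Stretches hold 45.1% of the arms, a share of bases that cannot be compared directly with a count of rows. The series-wide list calls X from 10158166 to 10159708 depleted (score -0.0429), which lies wholly inside the stretch from 10116620 to 10179495. Replicate 1 calls 2L from 22736556 to 22738150 depleted (-0.0783), of which 17 bp lie in a stretch and 98.9% under an enriched region of replicate 2. That region alone parts the stretches from 22474354 to 22736572 and from 22738331 to 22874073. The series-wide list calls 3R from 12977106 to 12978706 depleted (-0.0622), although an enriched region of replicate 1 covers 98.4% of it and borders the stretch from 12978683 to 13201774, into which the row reaches by 24 bp. The part of scores near 0 in these calls was not tested.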

How the results depend on the processing

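The number of stretches stayed within 1.5 times of 578 under all alternatives run, from 467 at a 50 kb limit to 748 at 30 kb. The share of the arms in stretches, 45.1%, moved by more than the SD between replicates to 50.1% at 30 kb and 40.9% at 50 kb. It moved to 48.5% with bases enriched in both replicates only, 43.4% with the series-wide list merged in, 46.8% without the lowest-scoring 10% of regions, 49.4% without regions under 2 kb, and 42.5% without the 2 Mb next to each centromere. Leaving out 1 replicate gave 45.7 to 47.8%. Residual cover, 0.582%, moved to 2.11% with bases enriched in both replicates only and 1.97% without regions under 2 kb. Without replicate 2 it was 0.878%, and without replicate 1 it was 1.73%. Stretches covered to at most 5% in the other replicate were 96.1% (mean of both directions), and at most 1% was met by 77.1%. Stretches in runs, 235, were 368 at distances up to 50 kb and 185 up to 10 kb. The innermost of 5 equal parts of the arms had 54.8 to 55.6% in stretches with 1 replicate left out, and the border score 0.891 to 0.955. The 2 Mb limit and the innermost part without 1 replicate were added after seeing the data. The lists hold no counts, so no depth limit could be set. No paired analysis was possible because no list of the inputs, which share replicate numbers with the ChIP samples, was analysed here. Values of both replicates stand side by side in the text.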
